A study of Homo sapiens with 3 samples.

Results

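The levels of 19775 genes were described in Rh-30 cells transfected with the control siRNA (siCont), measured on 1 of the 3 GeneChip Human Genome U133 Plus 2.0 arrays of the series. Rh-30 is an established line of alveolar rhabdomyosarcoma (ARMS) in which PAX3 is fused to FOXO1, and the study measured its RNA after transfection of siCont, of an siRNA against PAX3-FOXO1 (siPF) or of an siRNA against B7-H3 (siB7-H3). The knockdown arrays were not compared here. The siCont cells were kept in RPMI medium with fetal bovine serum, received the siRNA at 5 nM with Lipofectamine RNAiMAX, and were harvested 24 h later. They are transfected cells of 1 line in 1 culture, not untreated cells, and with 1 array there is no error between replicates and no test. Of 54675 probe sets, 62 array controls were left out and the other 54613 were ranked by siCont intensity. Each gene was represented by its brightest probe set among those named with that gene alone.

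Rhabdomyosarcoma is a tumour whose cells resemble muscle precursors that do not complete differentiation. In the alveolar form the fusion protein joins the DNA-binding part of PAX3, a factor of embryonic muscle and neural crest precursors, to the activating part of FOXO1, and it drives genes of the myoblast state together with genes of growth factor signalling. The normal path leads from PAX3 or PAX7 through MYF5 and MYOD1 to MYOG, after which precursors leave the cell cycle, fuse and fill with contractile proteins.

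The intensities ran from 0.195 to 37580, with a median of 70.4 over the ranked probe sets. A reference level was set at an intensity of 137, the 95th percentile of 87 genes that are restricted to other tissues, such as hormone, eye and germ cell genes. Over all genes, 51.6% lay at or above this level and 17.8% in the brightest 10% of probe sets, which began at an intensity of 1793. The share depended on the number of probe sets, since the brightest was taken: 34.8% of genes with 1 probe set and 80.5% of genes with at least 5 reached the reference level. Probe sets bind with different strength, so a percentile is a position on the array and not a ranking of transcript numbers. Among 10523 genes with at least 2 probe sets the brightest lay 6.86-fold above the dimmest in the median. Of the 6981 of these genes that reached the reference level, 2932 did so on every probe set and 1862 on a single one. The array controls for RNA integrity gave a ratio of the 3' to the 5' probe set of 0.907 for GAPDH and 0.991 for ACTB.

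The brightest genes belonged to translation, the cytoskeleton and mitochondria, with CDK4 among them. The first was COX2, the mitochondrially encoded cytochrome c oxidase subunit, at 37580, followed by CDK4, the kinase partner of D-type cyclins, at 35494 and by the elongation factor EEF1A1 at 35340. Of the 25 brightest genes, 14 encode ribosomal proteins, among them RPL39, RPS23 and RPS16, and others were the actin-binding peptides TMSB10 and TMSB4X, the tubulin TUBA1B, ACTB, TPT1, NACA, PPIA and the mitochondrial ND4. CDK4 was the single cell cycle gene among these 25. The 198 genes that make up the brightest 1% held 17.9% of the summed intensity of all genes. Of the 53 ribosomal protein genes with a probe set of their own, 52 reached the reference level and 50 the brightest 10%, and the lowest was RPL36A at 116. These counts were 24 and 13 of 30 without the probe sets that can bind several transcripts.

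**Figure D1:**
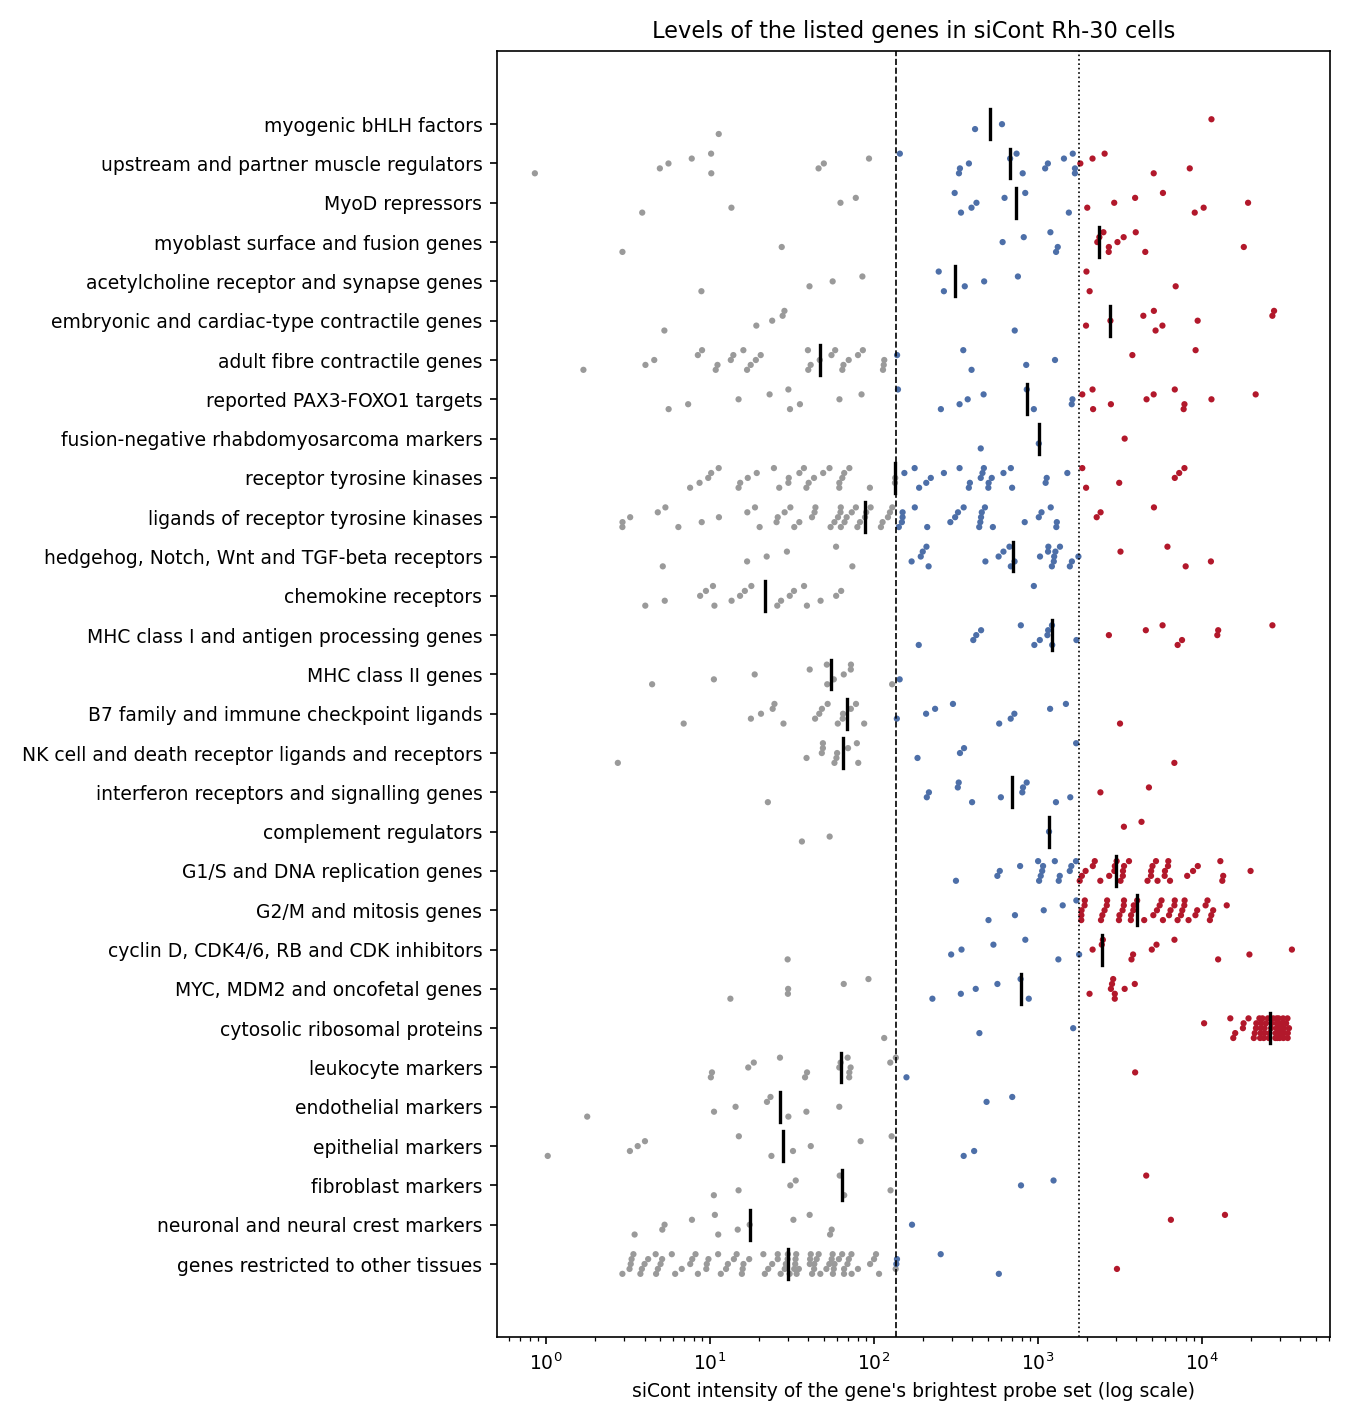
Each point is a gene of a list and the x axis is its siCont intensity on a log scale, with black ticks at the list medians, a dashed line at the reference level (137) and a dotted line at the lower edge of the brightest 10% (1793). The cell cycle and ribosomal lists lie mostly to the right of the dotted line, while adult fibre, chemokine receptor and MHC class II genes and the markers of other cell types lie mostly left of the dashed line.

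All 4 marker genes of fusion-positive rhabdomyosarcoma reached the reference level, and 3 of them the brightest 10%. CDK4 stood at 35494 and MYOD1, the factor that commits cells to the muscle lineage, at 11471, each on 1 probe set. FGFR4, a receptor tyrosine kinase of muscle precursors, stood at 6854, and its other probe sets at 2135, 1867 and 58.7. PAX3 was lower, at 381 on the brightest of 4 probe sets with 233 on the next and 24.5 or less on the others. The positions of the probes were not used here, so PAX3 and PAX3-FOXO1 transcripts could not be told apart. The single probe sets of CDK4 and MYOD1 carry the suffix of probe sets that can bind several transcripts.

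Among the 4 myogenic basic helix-loop-helix factors, the commitment factor MYOD1 was bright and the other factors were not. MYF5, an early determination factor, stood at 415 and MYOG, the factor of terminal differentiation, at 605, both at or above the reference level but outside the brightest 10%. MYF6, which is a factor of mature fibres, stood at 11.3. Each of these genes has 1 probe set.

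Of 27 measured regulators that act upstream of these factors or beside them, 18 reached the reference level, against 51.6% of all genes. A further 3 were not analysed here. The E proteins, which pair with MYOD1 on DNA, were at 8457 for TCF12, 2159 for TCF3 and 1636 for TCF4. With the median over their probe sets they were at 324, 242 and 503. SIX4 stood at 2559 and SIX2 at 1820, and their cofactors EYA3, EYA4 and EYA1 at 1445, 1153 and 810. EYA2 was at 7.76. These factors switch on myogenic genes in the embryo. SOX8, a factor of satellite cells, reached 5098. The MEF2 factors, which act with MYOD1 in differentiation, were at 1687 for MEF2C, 1686 for MEF2A and 335 for MEF2D. PAX7, the PAX3 relative that marks satellite cells, stood at 49.6 on the brighter of 2 probe sets. LBX1, a factor of migrating limb precursors, was also under the reference level, at 46.1.

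Of 18 genes whose products hold MYOD1 back, 14 reached the reference level, against 51.6% of all genes. Without the probe sets that can bind several transcripts the count was 6 of 13, against 50.8% of all genes under that choice. The ID proteins capture E proteins and thereby keep them from MYOD1. ID1 stood at 19178, ID3 at 9069 and ID2 at 3927, while ID4 was under the reference level at 62.7. The zinc finger repressors SNAI2 and ZEB1, which compete for the binding sites of MYOD1, stood at 10279 and 5803. HEY1, a target of Notch signalling, was at 2928 and HES1 at 423. TWIST1 and TWIST2, mesodermal repressors of MYOD1 and MEF2, were at 3.87 and 13.6.

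Myoblast surface and fusion genes stood high, with 15 of 17 measured members at or above the reference level and 10 in the brightest 10%. ITGB1, the integrin beta subunit of myoblasts, reached 18066. MYMX, the small membrane protein that opens the fusion pore between myoblasts, reached 4528, and the muscle caveolin CAV3 3961. NCAM1, the adhesion molecule used to identify muscle precursors, was at 2710, and the satellite cell cadherin CDH15 at 1294. VCAM1, the adhesion molecule that binds integrin alpha 4, was at 27.5. With the median over the probe sets of each gene, ITGB1 was at 92.3, NCAM1 at 178 and CDH15 at 1039. The count in the brightest 10% was 4 under that choice, where the share of all genes was 10.8%, against 17.8% with the brightest probe set.

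Of 12 genes of the neuromuscular synapse, 8 reached the reference level, against 51.6% of all genes. The count was 4 of 10 without the probe sets that can bind several transcripts, against 50.8% of all genes under that choice. With the reference level at the intensity of KLK3, a prostate gene at 579, it was 4 of 12, against 35.5% of all genes. The acetylcholine receptor subunit genes shared by fetal and adult muscle stood at 6939 for CHRNA1, 2073 for CHRNB1 and 471 for CHRND. CHRNG, the fetal subunit that is typical of rhabdomyosarcoma, was at 85.3 and the adult subunit CHRNE at 56.2, both under the reference level. RAPSN, which gathers the receptors, stood at 1983, and the kinase MUSK at 268 on 1 of 3 probe sets.

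Contractile genes were described in an embryonic and cardiac-type list, which also holds intermediate filaments and cytoskeletal genes of many cell types, and in an adult fibre list. Of 15 measured genes of the first list, 10 reached the reference level and 9 the brightest 10%, with a median percentile of 93.5. Of 35 adult fibre genes, 7 reached the reference level and 2 the brightest 10%, with a median percentile of 42.0, against 62.3 over all genes. The brightest of the first list were the intermediate filament VIM at 27631, the cardiac actin ACTC1, a sarcomeric actin of the embryo, at 26987 and the intermediate filament NES at 9450, and DES, the muscle intermediate filament, stood at 2776. ACTA1, the actin of adult fibres, stood at 39.9. The tropomyosins TPM2, TPM4 and TPM1 were at 5762, 5110 and 4407. The embryonic and perinatal heavy chains MYH3 and MYH8 were at 5.29 and 28.5, and the adult heavy chains MYH7, MYH2, MYH4 and MYH1 ranged from 41.2 down to 1.70, so heavy chains of both lists were under the reference level. Without the probe sets that can bind several transcripts, 5 of 13 genes of the first list were in the brightest 10%.

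Among adult fibre genes the exceptions were TNNT1, the slow troponin T, at 9180 and ENO3, the muscle enolase, at 3778. NEB, the thin filament ruler, reached 1275 and MYOZ2, a Z disc protein, 851. Both regulatory troponins of fast fibres were under the reference level, with TNNT3 at 85.8 and TNNI2 at 46.9, whereas TNNI1, the slow and fetal troponin I, was at 1970. TTN, the titin gene, had its 6 probe sets between 6.32 and 116. CKM, the muscle creatine kinase, stood at 4.59.

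**Figure D2:**
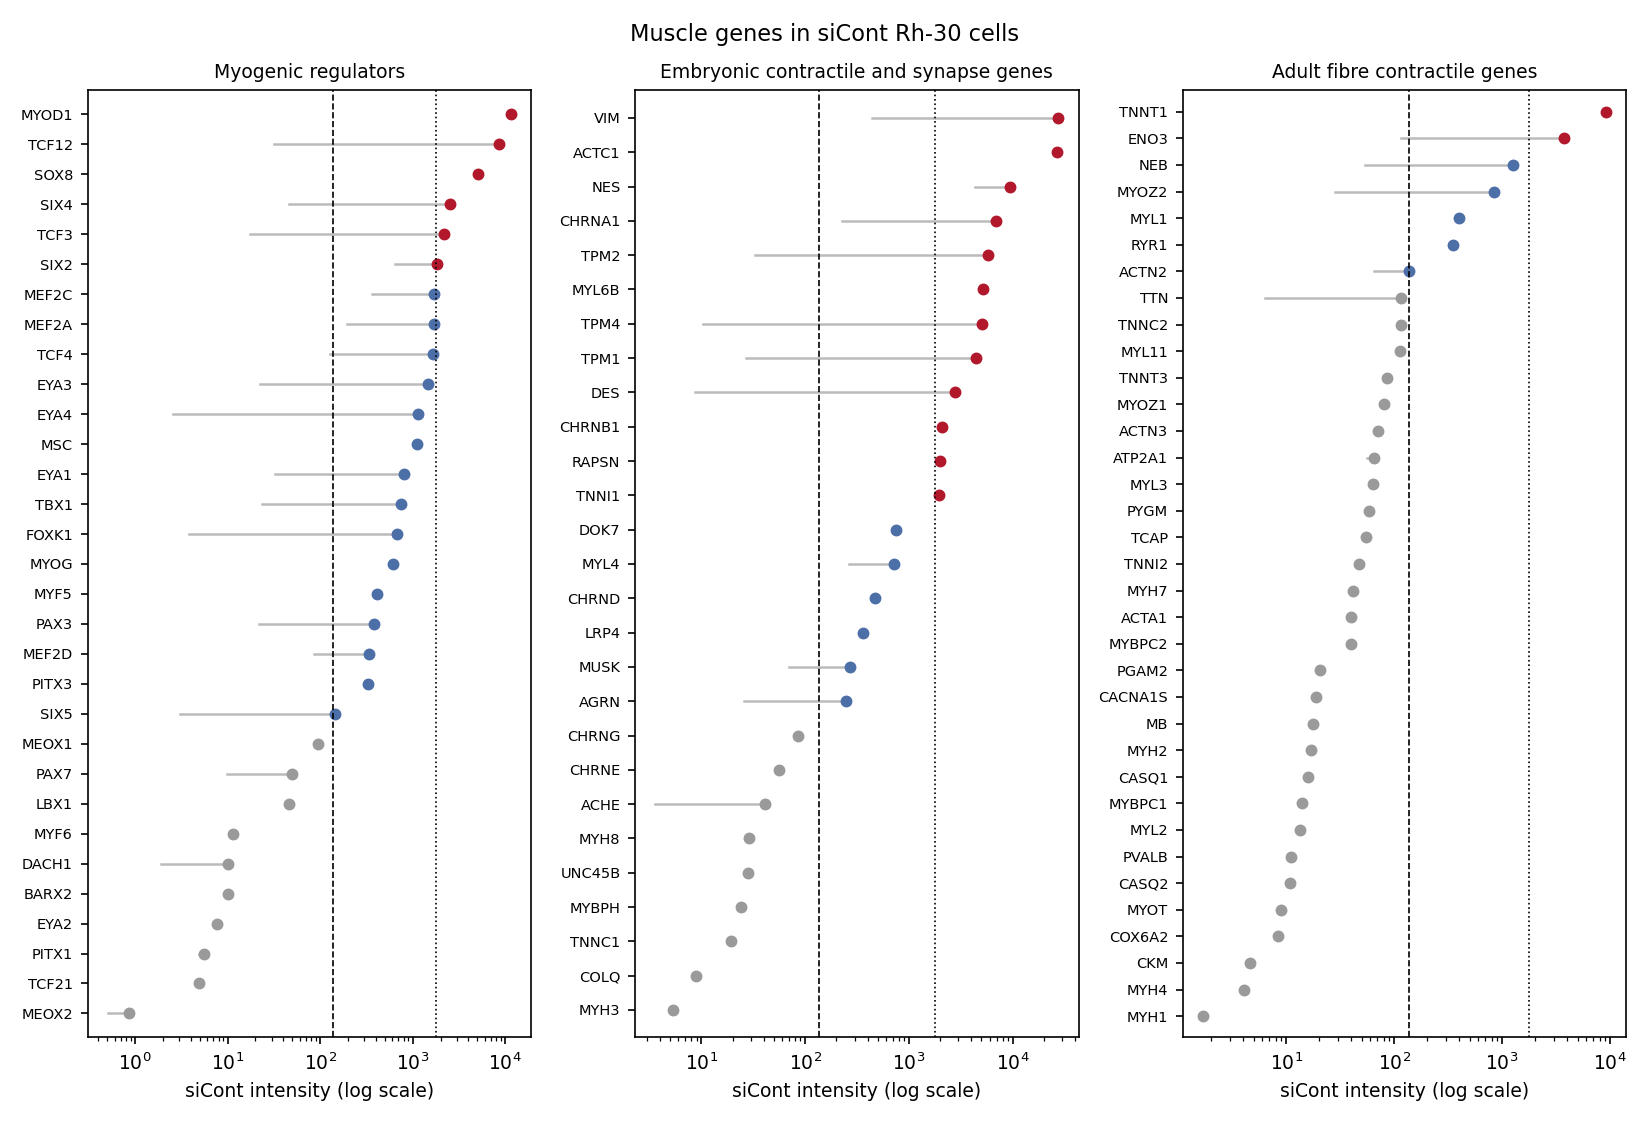
Points give the brightest probe set of each gene and grey bars reach to its dimmest, on a log axis of siCont intensity, for myogenic regulators, embryonic contractile and synapse genes, and adult fibre genes. Red points are in the brightest 10%, blue points at or above the reference level (dashed line, 137) and grey points under it. The adult fibre genes are grey but for 7 of 35.

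The promoters of muscle genes were searched for the letters CAGCTG, an E box that MYOD1 and its E protein partners bind, in the 150 bases before each start in RefSeq (GRCh38.p14). These letters read the same on both strands. They stood in 8.77% of all 27305 promoters, in 8.46% of those of measured genes and in 5.68% of those of genes in the brightest 10%. Of 8 matched synapse genes 3 held them (CHRNA1, CHRNE and MUSK), as did 8 of 26 adult fibre genes and 1 of 9 embryonic genes. CHRNA1, the bright member of the first group, lies on the minus strand with this window at chr2:174764473-174764622, and its sequence is shown 5' to 3' with the match in capitals.
CHRNA1: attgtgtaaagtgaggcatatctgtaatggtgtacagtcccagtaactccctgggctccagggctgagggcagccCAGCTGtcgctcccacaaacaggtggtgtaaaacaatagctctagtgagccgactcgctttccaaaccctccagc
CHRNA1 stood at 6939 and CHRNE, whose promoter also holds the letters, at 56.2, so the letters stood before a bright and before a dim gene. A match describes the sequence and is not a measured binding site.

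Of 29 genes that have been reported as targets of PAX3-FOXO1, 20 reached the reference level and 11 the brightest 10%. Of all genes, 51.6% and 17.8% did so. SKP2, which marks the inhibitor p27 for degradation, was the brightest at 21340, with all 3 of its probe sets at or above the reference level. MYOD1 and FGFR4 are members too, and other bright ones were the receptor MET at 7850, the enzyme ABAT of neurotransmitter breakdown at 7761, the arginine pathway enzyme ASS1 at 5094 and RASSF4, a scaffold that restrains the Hippo kinases, at 4611. MYCN stood at 2794, but 1 of its 10 probe sets reached the reference level and the next brightest gave 120. ALK was at 334 and OLIG2 at 374. Without the probe sets that can bind several transcripts, 13 of 23 measured targets reached the reference level. The share of all genes was 50.8% under that choice.

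Genes used to tell fusion-positive from fusion-negative tumours were found on both sides of the reference level. TFAP2B and CDH3, which are stained for in fusion-positive tumours, stood at 35.5 and 5.61, under the reference level. NOS1, another gene of fusion-positive tumours, was at 257. With the median over its probe sets it was at 86.6, under the reference level of 88.5 for that choice. The 3 genes associated with fusion-negative tumours all reached the reference level. HMGA2, a chromatin protein of embryonic cells, stood at 3390 on 1 of 9 probe sets, and the next gave 94.0. FBN2, a microfibril protein, stood at 1015 on 1 of 3, with the others at 35.5 and 32.5. EGFR was at 449, 309 and 296 on 3 of 9. None of the 3 reached the level with the median over its probe sets.

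Receptor tyrosine kinases bind growth factors outside the cell and signal to growth and survival pathways within it. Of 55 measured, 27 reached the reference level and 6 the brightest 10%, against 51.6% and 17.8% of all genes. The median percentile was 60.3, against 62.3 over all genes. The brightest were MET, the hepatocyte growth factor receptor, at 7850, AXL, the GAS6 receptor, at 7291, and FGFR4 at 6854. The others in the brightest 10% were RYK, a Wnt coreceptor, at 3140, the collagen receptor DDR2 at 1972, and IGF1R, the insulin-like growth factor receptor, at 1870. MET had its other 3 probe sets at 971, 739 and 557, and the second probe set of AXL gave 390. With the reference level at the intensity of KLK3, 12 receptors reached it, against 35.5% of all genes. In the brightest 10% there were 2 with the median over the probe sets, against 10.8% of all genes. There were 3 with percentiles among genes, against 10% of all genes.

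Within some families the levels of related receptors were far apart. FGFR1 stood at 698, with 6 of 7 probe sets at or above the reference level, FGFR2 at 189 on 1 of 11, and FGFR3 at 30.3 on none. EPHA7, EPHA2 and EPHB4, receptors of the membrane-bound ephrins, were at 1516, 1134 and 686. ERBB3 stood at 618, EGFR at 449, ERBB2 at 386 and ERBB4 at 49.2. With the median over their probe sets they were at 121, 63.0, 47.1 and 37.8. The platelet-derived growth factor receptors PDGFRA and PDGFRB were at 15.0 and 66.0, and KIT, KDR, FLT3 and RET were under the reference level at 15.3, 30.2, 8.66 and 64.3. INSR, the insulin receptor, was at 135, just under the reference level, and LTK at 154 just over it.

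Among 65 measured ligands and related factors, 25 reached the reference level and 3 the brightest 10%, against 51.6% and 17.8% of all genes. Their median percentile was 54.0. PDGFC, a ligand of PDGFRA, was the brightest at 5115. The second was VEGFA, the angiogenic factor, at 2418, followed by FGF13, a member of the family that stays inside the cell, at 2289. EFNB2, PGF, VEGFC, HBEGF and FGF7 lay between 1308 and 1015. FGF19, the ligand of highest affinity for FGFR4, stood at 44.1, and FGF8, another of its ligands, at 212. HGF, the ligand of MET, was at 63.0 and IGF1 at 66.4, while GAS6, the ligand of AXL, was at 326.

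The levels of ligands and of their receptors were set side by side. PDGFC at 5115 stood beside PDGFRA at 15.0, VEGFA at 2418 beside KDR at 30.2 and FLT1 at 94.7, KITLG at 833 beside KIT at 15.3, and CSF1 at 447 beside CSF1R at 71.0. In these 4 cases the brightest probe set of the ligand reached the reference level and that of the receptor did not. With the median over its probe sets KITLG was at 53.4 and CSF1 at 33.4, both under the reference level. For MET and IGF1R the receptor was in the brightest 10% and the ligand HGF or IGF1 was under the reference level, and IGF2, another ligand of IGF1R, was not analysed here. AXL with GAS6, EGFR with HBEGF, and EPHB4 with EFNB2 had both members at or above it, although EGFR was at 63.0 with the median over its probe sets.

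**Figure D3:**
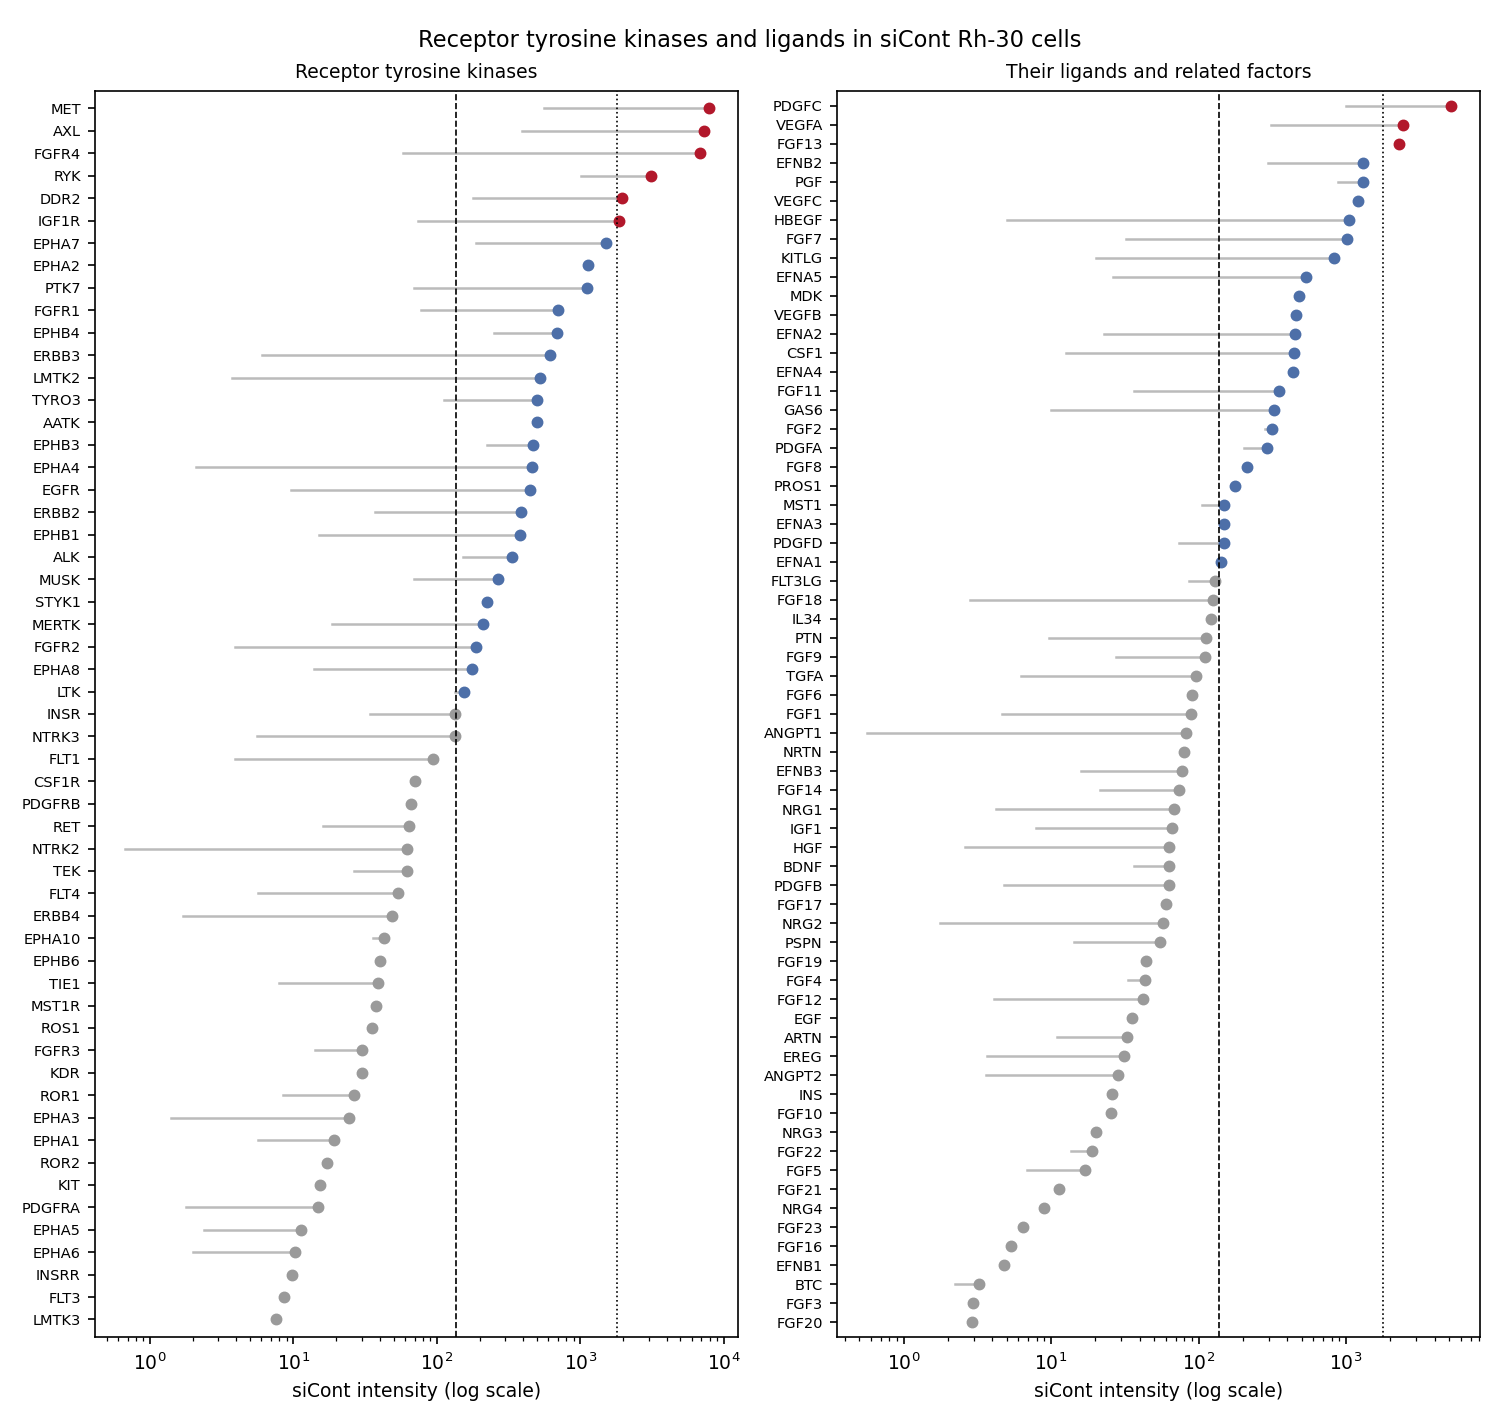
Points give the brightest probe set and grey bars reach to the dimmest, on a log axis of siCont intensity, for 55 receptor tyrosine kinases and 65 ligands and related factors. Red points are in the brightest 10% (dotted line, 1793), blue points at or above the reference level (dashed line, 137) and grey points under it. MET, AXL and FGFR4 lead the receptors and PDGFC the ligands.

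Receptors of the developmental pathways were mostly at or above the reference level, with 26 of 32, against 51.6% of all genes. GAS1, a coreceptor for hedgehog, stood at 11382. CDON and BOC, coreceptors that also take part in myoblast adhesion, were at 1367 and 480. PTCH1 was at 1161 and the signal transducer SMO at 170. TGFBR1 and TGFBR2, which bind TGF-beta together, were at 7985 and 3197. NOTCH2 was at 6182, NOTCH1 at 1282 and NOTCH3 at 216. The Wnt coreceptor LRP6 was at 1570. With the median over the probe sets of each gene, 24 of 32 reached the reference level. NOTCH2 was then at 2779, GAS1 at 1794, TGFBR2 at 1680 and TGFBR1 at 329. CDON at 74.9 and PTCH1 at 49.0 were under the reference level with that choice.

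Chemokine receptors formed the opposite case, with 1 of 20 at or above the reference level. CXCR4, the receptor for CXCL12, stood at 947, 760 and 653 on its 3 probe sets. The next, ACKR2, was at 63.3, and ACKR3, the second receptor for CXCL12, at 47.4. The lowest was CCR7, which guides leukocytes to lymph nodes, at 4.04.

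MHC class I molecules show peptides from inside the cell to cytotoxic T cells, and class II molecules show them to helper T cells on specialized cells. All 20 measured class I and antigen processing genes reached the reference level and 8 the brightest 10%, with a median percentile of 86.0. The light chain B2M stood at 27000, the heavy chains HLA-B, HLA-C and HLA-E at 7586, 7134 and 2716, and the chaperones PDIA3 and CANX at 12608 and 12454. TAP1 and TAP2, the peptide transporter, were at 789 and 1222, and the immunoproteasome subunits PSMB9, PSMB8 and PSMB10 at 1146, 1030 and 451. NLRC5, the activator of class I genes, was at 422, and TAPBPL, the lowest of the 20, at 188. Heavy chain genes are near identical in sequence, so the values of single HLA genes are uncertain. The number in the brightest 10% was 3 of 15 without the probe sets that can bind several transcripts.

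Of 12 class II genes, 1 reached the reference level, HLA-DOA at 144 on 1 of 5 probe sets, and the median percentile was 45.0. HLA-DRA, the alpha chain of the DR molecule, was at 4.45, the class II chaperone CD74 at 52.0 and CIITA, the activator of class II genes, at 18.8. Of 14 measured genes of interferon receptors and signalling, 13 reached the reference level, led by the kinase JAK1 at 4767 and the interferon gamma receptor chains IFNGR2 and IFNGR1 at 2412 and 1579. IFNLR1, the receptor for interferon lambda, was at 22.6. With KLK3 as the reference, 8 interferon genes and 0 class II genes reached it, against 35.5% of all genes.

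Of 26 genes of the B7 family and other checkpoint ligands, 10 reached the reference level, against 51.6% of all genes. CD47, which restrains phagocytosis, was the brightest at 3176. CD276, the gene of B7-H3, followed at 1486, with its other probe sets at 460 and 54.4. NECTIN3, NECTIN2 and PVR, the ligands of TIGIT and related receptors, were at 1190, 720 and 582. CD274, the gene of PD-L1, stood at 304, with its second probe set at 136, just under the reference level, and PDCD1LG2, the gene of PD-L2, at 87.4. The costimulators CD80 and CD86 were at 77.9 and 48.3, and the B7 family members VTCN1 and HHLA2 at 24.2 and 20.5. NCR3LG1, the gene of B7-H6, which NK cells recognize through NKp30, was at 237.

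Of 16 measured ligands and receptors for NK cells and death signals, 5 reached the reference level, against 51.6% of all genes. TNFRSF10B, a receptor for the death ligand TRAIL, stood at 6813, and TNFRSF10A, the other such receptor, at 38.9. FAS was at 69.7 on the brightest of 5 probe sets. Of the stress ligands of NKG2D, MICA at 336 and ULBP2 at 185 were at or above the reference level, and MICB at 49.0, ULBP1 at 49.0, ULBP3 at 59.2 and RAET1E at 2.75 were under it. The membrane complement regulators CD46, CD59 and CD55 stood at 4295, 3355 and 1172.

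**Figure D4:**
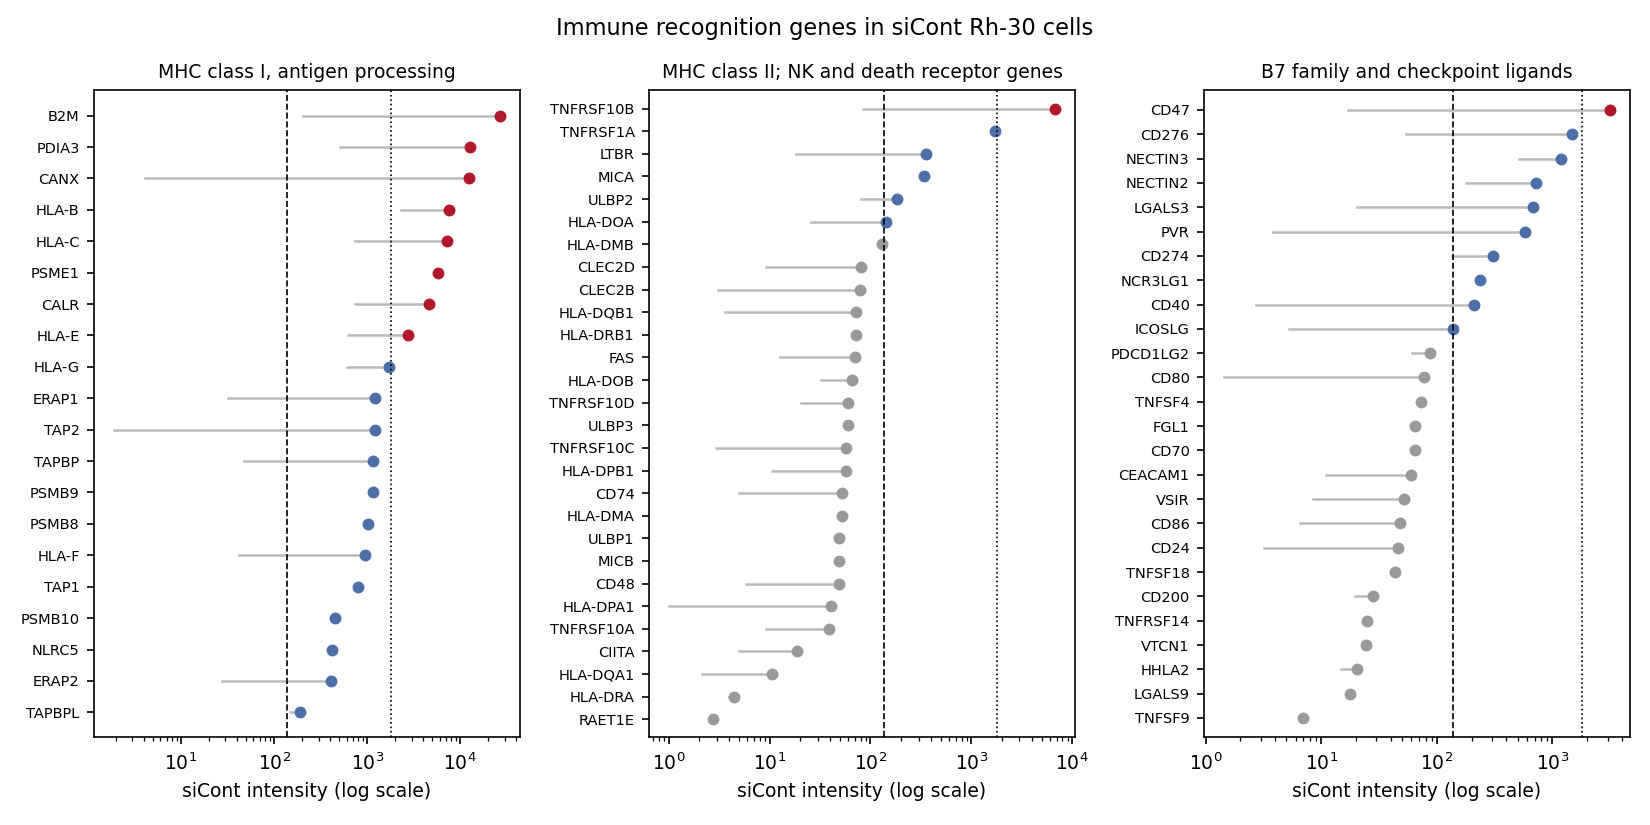
Points give the brightest probe set and grey bars reach to the dimmest, on a log axis of siCont intensity, for MHC class I genes, MHC class II with NK and death receptor genes, and checkpoint ligands. All class I points lie right of the dashed reference line (137), whereas HLA-DOA is the single class II gene right of it.

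Proliferation genes stood high throughout. All 48 measured G1/S and DNA replication genes reached the reference level and 33 the brightest 10%, with a median percentile of 94.0. All 49 G2/M and mitosis genes reached it and 44 the brightest 10%, with a median percentile of 95.8. In S phase the nucleotide enzymes TYMS, RRM2 and RRM1 stood at 19866, 13527 and 8857, the replicative helicase subunits MCM7, MCM2 and MCM6 at 13355, 8157 and 6230, and the clamp PCNA at 9467. The lowest member was CHAF1B, of the chromatin assembly factor, at 317. In mitosis PTTG1, the securin, stood at 14215, the kinase CDK1 at 11747, the ubiquitin enzyme UBE2C at 11442 and the topoisomerase TOP2A at 7128. MKI67, the gene of the Ki-67 antigen, was at 1088 and PLK1, the lowest, at 501, both outside the brightest 10%. The numbers in the brightest 10% were 20 of 38 for G1/S and 24 of 36 for G2/M without the probe sets that can bind several transcripts.

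The promoters of the G2/M and G1/S lists were searched for short elements, whatever the level of the gene. TTTGAA is the core of the cell cycle genes homology region, a promoter element of G2/M genes, and CCAAT is the box of the activator NF-Y. Both were searched in the 150 bases before the start on either strand. TTTGAA stood in 7.44% of all promoters, in 5.35% of those of measured genes and in 4.82% of those of genes in the brightest 10%. It stood in 20 of 42 matched G2/M promoters (47.6%) and in 0 of 42 matched G1/S promoters. CCAAT stood in 24.4% of all promoters, in 25.9% of those of measured genes, in 29 of 42 G2/M promoters (69.0%) and in 21 of 42 G1/S promoters. Both together stood in 1.97% of all promoters, in 1.59% of those of measured genes and in 16 of 42 G2/M promoters. From the 16, the promoters of a cyclin, a regulator of anaphase and the dimmest member of the list are shown, all on the plus strand and with the matches in capitals. They were chosen after their sequences were seen and come from chr15:59104996-59105145 for the cyclin gene CCNB2, chr1:43358831-43358980 for CDC20, an activator of the anaphase-promoting complex, and chr16:23678739-23678888 for PLK1.
CCNB2: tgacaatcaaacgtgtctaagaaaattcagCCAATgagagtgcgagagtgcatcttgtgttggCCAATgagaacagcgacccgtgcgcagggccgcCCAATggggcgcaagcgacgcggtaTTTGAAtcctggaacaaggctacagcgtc
CDC20: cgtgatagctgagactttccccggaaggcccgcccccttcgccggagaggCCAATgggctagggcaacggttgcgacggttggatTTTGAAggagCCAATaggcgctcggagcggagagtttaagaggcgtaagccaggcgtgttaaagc
PLK1: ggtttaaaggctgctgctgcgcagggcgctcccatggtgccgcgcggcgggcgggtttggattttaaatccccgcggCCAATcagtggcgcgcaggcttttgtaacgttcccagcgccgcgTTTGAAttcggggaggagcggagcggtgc
CCNB2 stood at 7833 and CDC20 at 6457, both in the brightest 10%, and PLK1 at 501. With the median over its probe sets CCNB2 was at 25.8. The same letters were thus found before the start of bright and of dimmer members, and these matches were not tested as sites.

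The cyclin D and RB pathway decides on entry into S phase. Of its 18 measured members, 17 reached the reference level and 11 the brightest 10%, against 51.6% and 17.8% of all genes. CDK4 at 35494 and CDK6 at 12596, the latter with all 7 probe sets at or above the reference level, stood beside their cyclins CCND2 at 19546, CCND3 at 5302 and CCND1 at 3816. RB1, the substrate of these kinases, was at 2497 and its relative RBL1 at 840. CDKN2A, which encodes the CDK4 inhibitor p16 and the MDM2 inhibitor p14ARF, stood at 6822, CDKN1B at 4963 and CDKN1A at 2161. CDKN1C, the inhibitor that MYOD1 can induce in differentiating myoblasts, was at 29.8, with none of 5 probe sets at or above the reference level. The counts were 11 and 7 of 13 without the probe sets that can bind several transcripts, where CDK4 drops out.

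Of 19 measured MYC, MDM2 and oncofetal genes, 14 reached the reference level, against 51.6% of all genes. MYC stood at 2839 on 1 probe set, beside MYCN at 2794, and their partner MAX was at 2952. The fetal RNA-binding proteins IGF2BP3, IGF2BP2 and IGF2BP1 were at 3908, 2951 and 786. MDM2, a ubiquitin ligase, was at 2885 with 6 of 10 probe sets at or above the reference level, and its relative MDM4 at 2070. TERT, the telomerase gene, was under the reference level at percentile 33.1, and LIN28B at 13.4.

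The neighbours of CDK4 on chromosome 12 were bright as well. In windows of 21 neighbouring measured genes in reference order, the median of 19226 windows had 4 genes in the brightest 10%. The highest was 16, reached by 1 window, which ran from DDIT3 to CTDSP2 on chromosome 12 and held CDK4. In the order of the chromosome, the stress factor DDIT3 stood at 16512, MBD6 at 7976, DCTN2 at 4137, PIP4K2C at 4802 and ARHGEF25 at 2700, and OS9, of protein quality control in the endoplasmic reticulum, at 18710. Next to CDK4 lay AGAP2-AS1 at 7558, TSPAN31 at 7425, MARCHF9 at 7039, CYP27B1, the enzyme that activates vitamin D, at 3914, METTL1 at 3862, EEF1AKMT3 at 5495, TSFM at 14993, AVIL at 4118 and CTDSP2 at 14397. The window also held dim genes, with the neuronal kinesin KIF5A at 57.2 and AGAP2 at 207.

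Bright and dim genes were mixed beyond this window. After CTDSP2 came LOC283387 at 161 and LOC101927608 at 88.0, then GIHCG at 8935 and ATP23 at 9391, and then LINC02388 at 285 and LRIG3 at 535. Before DDIT3 lay ARHGAP9 at 612, GLI1, a hedgehog factor, at 419 and INHBE at 9875, and farther out STAC3 at 6893 and SHMT2, a mitochondrial enzyme of serine metabolism, at 28598. The next windows apart from this had 13 of 21, on chromosome 1 from DR1 to SNX7, with the actin-binding CNN3 at 16821, and on chromosome 14 from RPS29 to NIN, with RPS29 at 27327 and RPL36AL at 11384. By chromosome the share of genes in the brightest 10% ran from 9.77% on chromosome 19 to 24.5% on chromosome 14 and was 22.6% on chromosome 12. In windows of 41 genes chosen after the data were seen, the window on chromosome 12 and 1 on chromosome 1 both had 22, the highest of 18766. Without the probe sets that can bind several transcripts, 7 of 15 measured genes of the window were in the brightest 10% and other windows had up to 11. RNA was measured here, and the copy number of these genes was not.

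**Figure D5:**
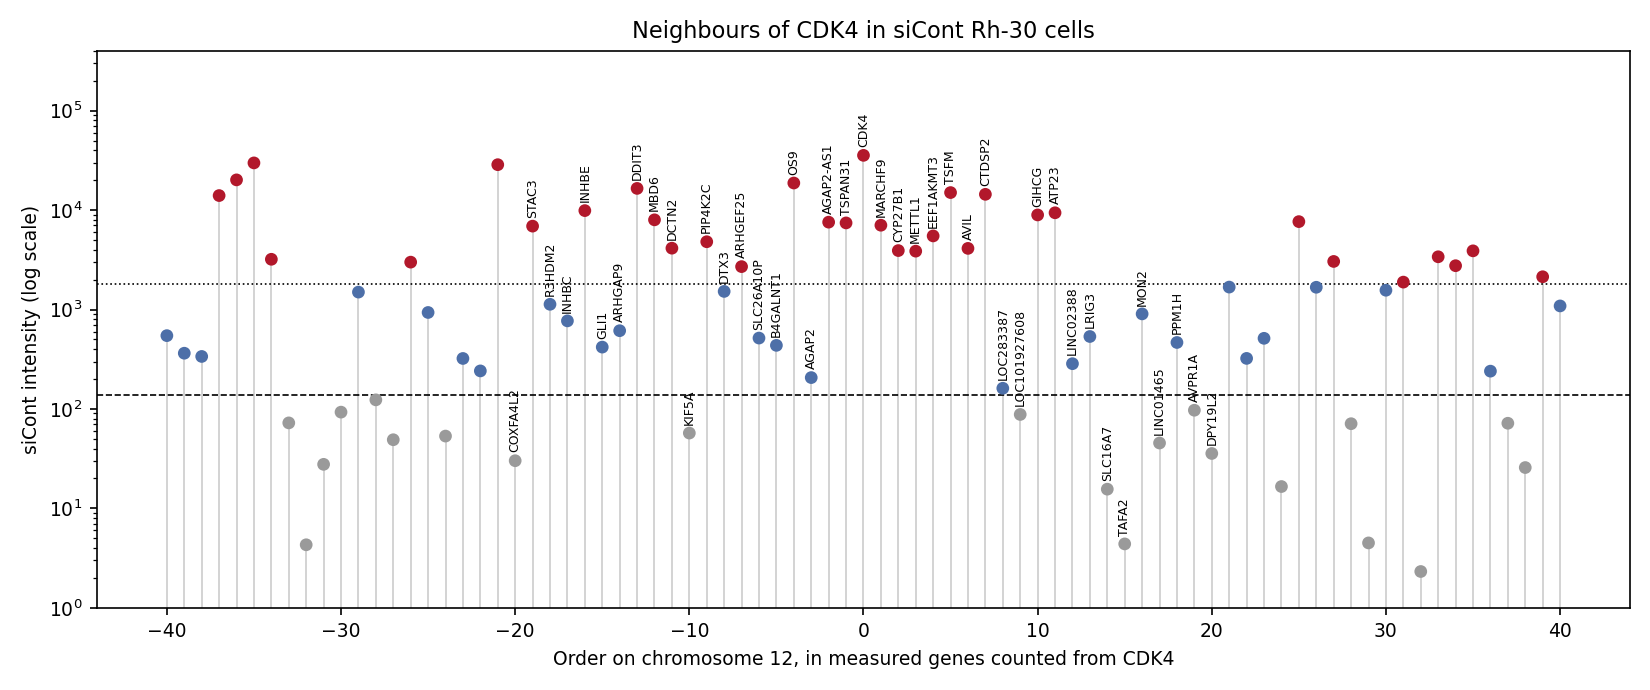
Points give the siCont intensity on a log scale for measured genes in their order on chromosome 12, counted from CDK4, with red for the brightest 10%, blue for genes at or above the reference level (dashed line, 137) and grey for genes under it. From DDIT3 to CTDSP2, 16 of 21 genes are red.

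Markers of other cell types were mostly under the reference level. Of 17 measured leukocyte markers 2 reached it, LAPTM5, a lysosomal protein of blood cells, at 3928 and 2852 on its 2 probe sets, and NKG7 at 158. The defining leukocyte genes PTPRC and CD3E were at 72.3 and 61.7. Of 10 endothelial markers 2 reached it, PECAM1 at 699 and ROBO4 at 488, with CDH5 and VWF at 1.79 and 22.3. Of 12 epithelial markers 2 reached it, KRT7 at 410 and CLDN4 at 354, with EPCAM and CDH1 at 1.03 and 23.8. Neuronal and neural crest markers gave 3 of 15, TUBB3 at 13866, the adhesion molecule L1CAM at 6488 and MAP2 at 171, with SOX10 and CHGA at 32.4 and 3.48. Fibroblast markers gave 3 of 10, the collagens COL3A1 at 4589 and COL1A1 at 1249 and THY1 at 791, with COL1A2 at 62.0 and LUM at 10.6. The part of other cells in any of these levels was not tested. Of the 87 genes restricted to other tissues, 5 lay at or above the level they set, KRT10 at 3043, KLK3 at 579, SFTPB at 256, SFTPC at 139 and CYP3A4 at 137.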

How the data were processed

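The siCont, siPF and siB7-H3 groups of Rh-30 cells had 1 array each. Linear intensities, 1 value for each probe set, were deposited by the authors, whose processing notes name Affymetrix Expression Console 1.4.1. How probe sets were summarized and scaled is not given in the sources used here, so levels of other experiments cannot be set against these. The siCont column was used alone, except for 1 alternative that chose probe sets by their mean over the 3 arrays.

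Gene names came from the annotation of the array and were updated to RefSeq symbols. Of 54613 ranked probe sets, 41091 had 1 gene, 1801 several and 11721 none, and only the first were used for genes. Of 819 list members, 744 had a probe set of their own, and the others were not analysed here. No pseudocount or floor was used, and no test was made, as there was 1 array per group. The members and the 31 lists were chosen with earlier results of these data known. Genes were named if among the 25 brightest, a marker, a list member or in 1 of the 3 windows with most bright genes. Genes beside the CDK4 window were named after their values were seen. Promoters came from RefSeq (GRCh38.p14). The values were computed in Python 3.11.15 with pandas 2.3.3, numpy 2.4.6 and scipy 1.17.1, plotted with matplotlib 3.10.9, and the computation was checked on simulated data. The alternatives were other choices of probe set, percentiles among genes and other reference levels.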

Additional observations from a re-analysis of the deposited data

How the results depend on the processing

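Of 266 values recomputed under alternatives, 210 moved by less than the limit (a factor of 1.5 in a count, or the 95% range of the list median by order statistics in a median) and 56 by more. Choosing probe sets by their mean over the 3 arrays moved none of its 51. Without the probe sets that can bind several transcripts, 16788 genes were left and 50.8% of them reached a reference level of 87.6. The members at or above it were then 2 of 2 measured fusion-positive markers, 1 of 2 myogenic factors, 6 of 13 MyoD repressors and 4 of 10 synapse genes. So were 13 of 23 PAX3-FOXO1 targets, 1 of 3 complement regulators and 11 of 13 cyclin D and RB genes. The same held for 9 of 17 MYC, MDM2 and oncofetal genes, 24 of 30 ribosomal proteins and 1 of the fibroblast markers. Those in the brightest 10% were 5 embryonic and 1 adult contractile gene, 6 PAX3-FOXO1 targets, 1 ligand, 3 MHC class I genes, 20 G1/S genes, 24 G2/M genes, 7 cyclin D and RB genes and 13 ribosomal proteins. The median percentiles were 40.8 for ligands, 78.5 for MHC class I and 92.4 for G2/M, and the window from DDIT3 to CTDSP2 had 7 bright genes. Fewer genes were measured under this choice, so each count is out of fewer list members. The share of all genes in the brightest 10% was 12% under it.

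With each gene at the median of its probe sets, the brightest 10% held 4 myoblast surface genes, 6 PAX3-FOXO1 targets, 2 receptor tyrosine kinases and 7 cyclin D and RB genes, 0 fusion-negative markers reached the reference level, and the median percentiles were 43.1 for ligands, 82.7 for MHC class I and 94.4 for G2/M. With percentiles among genes, the brightest 10% held 4 myoblast surface genes, 7 PAX3-FOXO1 targets, 3 receptors and 1 ligand, and the medians were 43.3 for ligands, 75.8 for MHC class I, 89.2 for G1/S and 92.6 for G2/M. The share of all genes in the brightest 10% fell too, from 17.8% to 10.8% with the medians and to 10% with percentiles among genes.

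With the reference at KLK3 (579), an alternative chosen after seeing the data, the numbers at or above it were 4 synapse genes, 4 adult fibre genes, 12 receptors, 9 ligands, 0 MHC class II genes, 6 checkpoint ligands, 2 NK and death receptor genes, 8 interferon genes, 1 leukocyte marker, 1 endothelial marker and 0 epithelial markers. At the array median (70.4) they were 12 adult fibre genes, 4 MHC class II genes, 7 leukocyte markers and 4 epithelial markers, and at the 90th percentile of the tissue-restricted genes (97.2) 2 MHC class II genes and 4 leukocyte markers. Of all genes, 35.5% reached the KLK3 level, 60.2% the array median and 55.4% the 90th percentile of the tissue-restricted genes. No paired analysis was possible because each group had 1 array. The signal over background limits levels near 137, and 1 array gives no error for any level.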
